A study of Homo sapiens with 12 samples.

Results

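The UGT1A family is a set of UDP-glucuronosyltransferases, enzymes of the endoplasmic reticulum that attach glucuronic acid to bilirubin, steroids, plant phenols and many drugs. The members studied here were the 8 genes UGT1A1, UGT1A3, UGT1A4, UGT1A6, UGT1A7, UGT1A8, UGT1A9 and UGT1A10, chosen by symbol, and 7 of these 8 were matched to one of the 60675 gene IDs of the count table. UGT1A3 was not matched and was not analysed here. HT29 cells, an established line of human colorectal adenocarcinoma, had been kept for 24 h with an extract or with its vehicle alone. The extract was a hot water extract of *Aconitum carmichaeli* Debeaux (ACD), the root drug aconite. Its low dose was 20 µg/mL, its medium dose 100 µg/mL and its high dose 500 µg/mL. The vehicle, 2% DMSO in PBS, was also the solvent of the extract and was added to growth medium. There were 3 RNA-seq libraries of the same unmodified line in each of the 4 groups, and nothing in the labels says that the libraries of a group came from separate cultures, so p-values measure the spread between these libraries, which may be technical. The labels are not uniform about the herb: ACD is in the titles and the treatment field, but the text on treatment is about *Poria cocos*, and grouping followed the titles.

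Glucuronidation makes a compound more soluble in water, so that it can leave the cell through export pumps and the body in bile or urine. In the gut, UGT1A enzymes of the epithelium act on compounds from food and drugs before they reach the blood. The genes of the family are known to be inducible through ligand-activated receptors such as the aryl hydrocarbon receptor (AhR) and through the stress-responsive factor NRF2, and each has a promoter of its own.

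All members lie in 1 locus on chromosome 2, on the forward strand, and each joins an exon 1 of its own to the same 4 exons. In the GENCODE release 44 annotation of GRCh38, exons 2 to 5 are chr2:233767034-233767165, chr2:233767849-233767936, chr2:233768220-233768439 and chr2:233772262-233773300, together 1479 bases. The exon 1 of the main transcript is 882 to 976 bases long and lies at chr2:233617633-233618562 in UGT1A8, chr2:233636448-233637377 in UGT1A10, chr2:233671898-233672789 in UGT1A9, chr2:233681901-233682792 in UGT1A7, chr2:233692890-233693865 in UGT1A6, chr2:233718736-233719687 in UGT1A4 and chr2:233760270-233761151 in UGT1A1. A read pair inside exons 2 to 5 therefore matches every member, and only pairs that touch exon 1 tell the members apart.

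**Figure D1:**
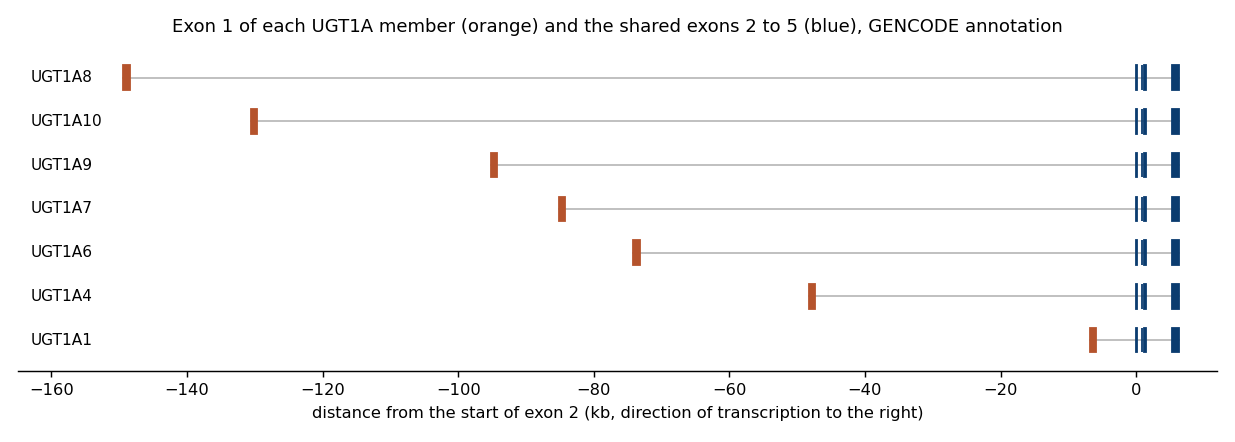
Exons of the 7 matched UGT1A members by their distance in kb from the start of exon 2, with exon 1 in orange and the shared exons 2 to 5 in blue. Exon 1 starts 149.401 kb before exon 2 in UGT1A8 and 6.764 kb before it in UGT1A1.

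The junction of exon 1 and exon 2 is shown for each member because it is where the sequence of each member's own meets the shared exons. The last 30 bases of exon 1 are in lower case and the first 30 bases of exon 2, which every member has, are in capitals (GRCh38 genome, forward strand, 5′ to 3′).
UGT1A1: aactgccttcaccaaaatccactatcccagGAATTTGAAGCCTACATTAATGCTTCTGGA
UGT1A4: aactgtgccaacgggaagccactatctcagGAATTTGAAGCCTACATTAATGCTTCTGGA
UGT1A6: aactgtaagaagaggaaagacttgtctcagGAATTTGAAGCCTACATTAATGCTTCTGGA
UGT1A7: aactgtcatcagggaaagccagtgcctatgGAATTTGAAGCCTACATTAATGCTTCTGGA
UGT1A8: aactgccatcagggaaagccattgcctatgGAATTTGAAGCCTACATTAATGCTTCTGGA
UGT1A9: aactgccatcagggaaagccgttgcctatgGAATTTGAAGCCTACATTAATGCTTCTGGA
UGT1A10: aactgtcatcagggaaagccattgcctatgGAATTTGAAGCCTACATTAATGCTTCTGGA
UGT1A6 differs from each of the other 6 members at 11 to 16 of these 30 bases, and UGT1A1 from each of the others at 10 to 16. UGT1A7, UGT1A8, UGT1A9 and UGT1A10 differ from each other at only 1 to 3 of them. Over the whole of exon 1, UGT1A8 and UGT1A10 were 94.4% identical, UGT1A7 and UGT1A9 were 92.0% identical and UGT1A4 was 93.1% identical to UGT1A3, whereas the closest exon 1 was 61.5% identical in UGT1A1 and 58.5% identical in UGT1A6. Of all stretches of 100 bases, the read length, in exon 1, 91.6% in UGT1A8, 95.1% in UGT1A9 and 96.3% in UGT1A10 occurred in the exon 1 of no other member, and 100% did so in UGT1A1, UGT1A4, UGT1A6 and UGT1A7. Reads of the shared exons were divided among all members by estimate, UGT1A6 and UGT1A1 included, so the members' counts are not independent of each other. Between near-identical members such as UGT1A8 and UGT1A10 the division is uncertain in exon 1 as well. The sum over the family, which does not depend on how reads were divided among its 7 matched members, is therefore given beside them. UGT1A3 and UGT1A5, which end at the same base of the locus, were not matched. The sum and the shares hold no counts given to them. A non-coding gene on the opposite strand, ENSG00000224814, overlaps 432 bases of exon 1 of UGT1A6, and it held at most 1.56 expected counts in any library.

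The libraries held 15941255 to 33866644 expected counts. High-dose replicate 2 stood apart: the SD of its log2 differences from the other 2 libraries of its group was 0.502 over 10626 genes, against 0.102 to 0.293 in the other 11 libraries, and it also had the lowest depth. Genes of the mitochondrial genome took 14.0% to 16.6% of the counts at the high dose and 7.41% to 11.0% in the other groups, and the high-dose log2 fold change of UGT1A6 was 0.81 also with library sizes that leave these genes out. Each of 12 fixed markers of colon epithelium, such as EPCAM, KRT20 and VIL1, was measured at 1 CPM or more in every group, and none passed the test at any dose. Of 13 markers of liver, blood, stromal and endothelial cells, 1 or 2 reached 1 CPM, with a summed level of 2.55 to 4.61 CPM per library, and COL1A2 was at 0 in every group. In bulk RNA of this kind, fewer cells that express a gene and less RNA per cell cannot be told apart.

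Summed over the family, UGT1A transcripts were more abundant at the medium and the high dose than with the vehicle. The summed level, in CPM (counts scaled to a size common to all libraries, with TMM factors), was 507, 482 and 482 in the vehicle libraries, 501, 484 and 547 in the low-dose group, 620, 603 and 620 in the medium-dose group and 673, 832 and 651 in the high-dose group. Every medium-dose and high-dose library was thus above every vehicle library, and the low-dose libraries overlapped with the vehicle. The mean was 491 ± 14.6 CPM with the vehicle, 511 ± 32.8 in the low-dose group, 614 ± 9.90 in the medium-dose group and 719 ± 99.0 in the high-dose group (SD, n = 3 libraries in each group). The fitted log2 fold change of the sum against the vehicle was 0.06 ± 0.10 in the low-dose group, 0.32 ± 0.10 in the medium-dose group and 0.55 ± 0.10 in the high-dose group (SE, n = 3 per group), with no test, since the members were chosen with earlier results known. Without high-dose replicate 2 the high-dose value was 0.43 ± 0.06.

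**Figure D2:**
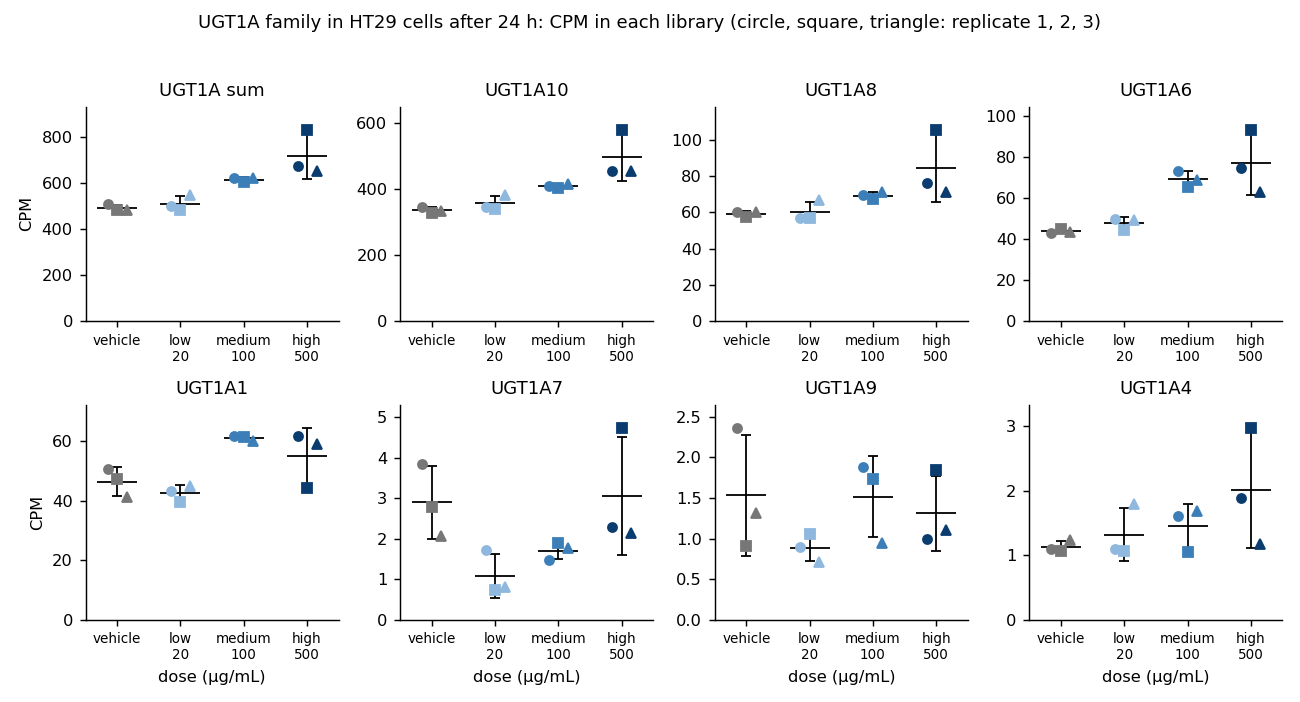
CPM of the family sum and of each member in each library, by dose, with the mean as a horizontal line and the SD as the bar (n = 3), each panel on a scale of its own from 0. UGT1A6, UGT1A8 and UGT1A10 lay above all vehicle libraries in every medium-dose and high-dose library, and the square of high-dose replicate 2 was the highest of its group in these 3 members and the lowest in UGT1A1.

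At the high dose, 1 of the 7 members, UGT1A6, was called, as higher, and no member was called as lower. A call required a fold change above 1.5 and an adjusted p below 0.05. Of all 15374 genes tested, 2.93% were called at the high dose, and 1.26% were called as higher. By the adjusted p alone, 3 members were higher (UGT1A6, UGT1A10 and UGT1A8), where 5.77% of all genes passed in either direction and 2.82% upwards. When edgeR was fitted to the 6 libraries of this comparison alone, none of the 3 passed it (adjusted p = 0.0559, 0.110 and 0.227), and UGT1A8 passed it under 9 of the 20 alternatives. The same 3 members did not overlap between the 2 groups of libraries, all 3 higher, as 10.5% of all genes were higher without overlap. The median log2 fold change was 0.51 over the 7 members and 0.01 over all genes tested.

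At the medium dose, UGT1A6 was again the 1 member called, where 0.676% of all genes were called and 0.384% were higher. Libraries did not overlap for UGT1A1, UGT1A6, UGT1A8 and UGT1A10, all higher than the vehicle (14.5% of all genes), or for UGT1A7, which was lower (14.1%). At the low dose none of the 7 members was called by edgeR in the fit of all 12 libraries, where 0.111% of all genes were, and 1 of them, UGT1A7, had an unadjusted p under 0.05. DESeq2 on all 12 libraries called none at the low dose either, and on the vehicle and low-dose libraries alone it called UGT1A7. UGT1A7 was also the 1 member whose libraries did not overlap with the vehicle, lower by this measure as were 9.61% of all genes. All these comparisons share the vehicle libraries and are not independent of each other.

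**Figure D3:**
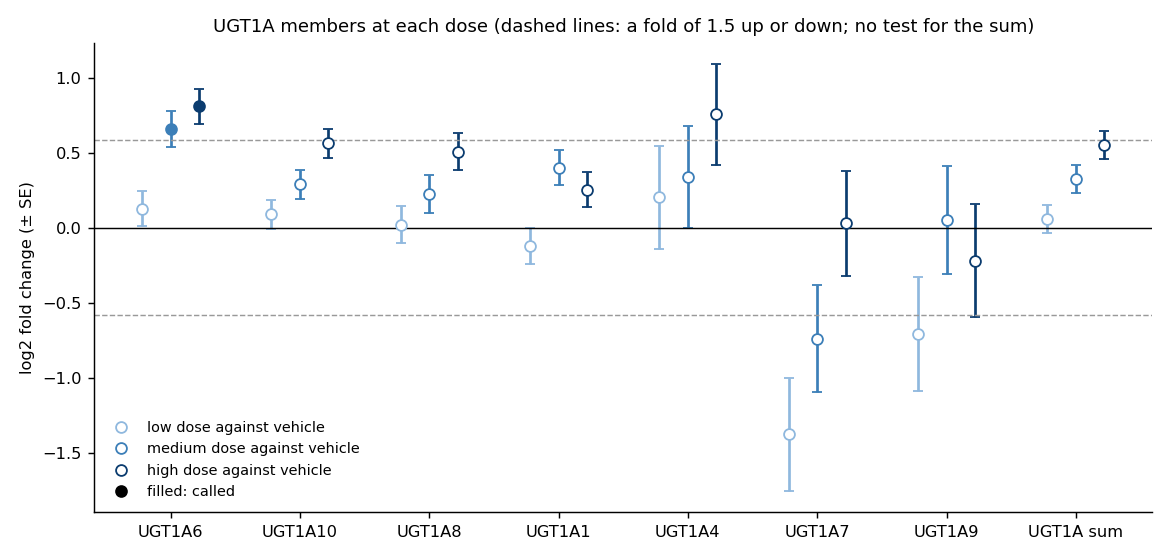
Log2 fold change against the vehicle (vertical axis, ± SE, n = 3 per group) of each member and of the family sum at the low, medium and high dose, with filled points for members called. UGT1A6 stood at 0.66 for the medium dose and 0.81 for the high dose, and the 3 members of low level had the widest errors.

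UGT1A6, which conjugates small planar phenols such as paracetamol and also serotonin, was the member with the smallest adjusted p at both the medium and the high dose. Its level was 43.3, 45.1 and 43.4 CPM with the vehicle, 49.9, 44.6 and 49.5 in the low-dose group, 73.6, 65.6 and 68.7 in the medium-dose group and 74.6, 93.6 and 63.2 in the high-dose group. The low-dose libraries overlapped with the vehicle, and each medium-dose and high-dose library was above all of both groups. The fold change at the high dose was 0.81 ± 0.12 on the log2 scale (SE, n = 3 per group), or 1.76-fold between group means (edgeR, adjusted p = 0.00156). At the medium dose it was 0.66 ± 0.12 or 1.58-fold (edgeR, adjusted p = 0.0199), and at the low dose 0.13 ± 0.12 (edgeR, adjusted p = 0.833), with an approximate 95% interval of −0.10 to 0.36.

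Between the high and the medium dose the difference of UGT1A6 was 0.15 ± 0.12 and did not pass the test (edgeR, adjusted p = 0.652, 95% interval −0.08 to 0.38) and came to −0.01 without high-dose replicate 2. Against the low dose, UGT1A6 was higher by 0.68 ± 0.12 at the high dose (edgeR, adjusted p = 0.00674), where 1.58% of all genes were called and 0.748% as higher, and without high-dose replicate 2 the difference was 0.52, under the fold limit. Between the medium and the low dose it was 0.53 ± 0.12 (edgeR, adjusted p = 0.206), and none of the 7 members was called in that comparison, where 0.104% of all genes were called. UGT1A1 had a similar value there, 0.52 ± 0.12 (edgeR, adjusted p = 0.218). With edgeR on the medium-dose and low-dose libraries alone, UGT1A6 (2.13e-05) and UGT1A1 (1.58e-05) passed the adjusted p but not the fold limit. UGT1A6 and UGT1A1 each passed the adjusted p under 5 of the 20 alternatives. Between the high and the medium dose 0.488% of all genes were called and again no member. Without overlap, 3 members were higher at the high than at the medium dose (UGT1A7, UGT1A8 and UGT1A10, against 8.32% of all genes), and 4 were higher at the medium than at the low dose (UGT1A1, UGT1A6, UGT1A8 and UGT1A10, against 6.46%). The call at the high dose was lost when edgeR used the vehicle and high-dose libraries alone (adjusted p = 0.0559), and the call at the medium dose was lost when any 1 of the vehicle or medium-dose libraries was left out (adjusted p = 0.0603 to 0.111). The log2 fold changes in these fits were 0.81 for the high dose and 0.61 to 0.70 for the medium dose. With edgeR on the vehicle and medium-dose libraries alone, the call at the medium dose was kept (adjusted p = 8.87e-05). It was kept under 13 of the 20 alternatives.

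UGT1A10, an enzyme of the gut that is scarcely expressed in liver, was the most abundant member per length of transcript. Its level was 346, 327 and 333 CPM with the vehicle, 347, 340 and 383 in the low-dose group, 410, 404 and 416 in the medium-dose group and 455, 579 and 453 in the high-dose group. The medium-dose and high-dose libraries all lay above the vehicle and the low dose. The log2 fold change was 0.56 ± 0.10 at the high dose, or 1.48-fold, past the adjusted p (edgeR, 0.00448) and just under the fold limit. It was 0.29 ± 0.10 at the medium dose (edgeR, adjusted p = 0.254) and 0.09 ± 0.10 at the low dose (edgeR, adjusted p = 0.857). UGT1A10 passed the fold limit as well when vehicle replicate 1, high-dose replicate 1 or high-dose replicate 3 was left out, and its log2 fold change was 0.44 ± 0.06 without high-dose replicate 2. Against the low dose it was higher by 0.47 ± 0.10 at the high dose by the adjusted p alone (edgeR, 0.0186), as were 1.44% of all genes, and the libraries of UGT1A6, UGT1A7, UGT1A8 and UGT1A10 did not overlap there, all higher, as in 9.61% of all genes. With high-dose replicate 2 left out of the joint fit, the medium-dose value of UGT1A10 stayed at 0.29 and passed the adjusted p (edgeR, 0.00328), as did those of UGT1A1 (0.00185) and UGT1A8 (0.0395), all under the fold limit. With edgeR on the vehicle and medium-dose libraries alone, UGT1A10 (0.0104), UGT1A1 (0.00992) and UGT1A8 (0.0422) also passed the adjusted p. Each of them passed it under 3 of the 20 alternatives.

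UGT1A8, the other mainly intestinal member and the nearest in sequence to UGT1A10, had a similar pattern at a lower level. It was at 60.0, 57.7 and 60.3 CPM with the vehicle, 57.0, 56.9 and 66.6 in the low-dose group, 69.4, 67.1 and 71.3 in the medium-dose group and 76.3, 106 and 71.5 in the high-dose group. All medium-dose and high-dose libraries were above all vehicle libraries. The log2 fold change was 0.51 ± 0.12 at the high dose, past the adjusted p (edgeR, 0.0348) and under the fold limit, and 0.32 ± 0.07 without high-dose replicate 2 (edgeR, adjusted p = 0.00425). The pass was lost under 11 of the 20 alternatives, among them DESeq2 on the 6 libraries of the comparison (adjusted p = 0.0848) and edgeR without any 1 of the vehicle libraries (adjusted p = 0.0899 to 0.128). At the medium dose it was 0.22 ± 0.12 (edgeR, adjusted p = 0.535) and at the low dose 0.02 ± 0.12 (edgeR, adjusted p = 0.983).

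UGT1A1, the enzyme that conjugates bilirubin, did not pass the adjusted p at any dose in the fit of all libraries. Its level was 50.6, 47.3 and 41.1 CPM with the vehicle, 43.3, 39.5 and 44.9 in the low-dose group, 61.9, 61.4 and 60.1 in the medium-dose group and 61.8, 44.2 and 59.0 in the high-dose group. The medium-dose libraries were all above the vehicle, and at the high dose 2 libraries were above it and replicate 2 lay within it. The log2 fold change at the high dose was 0.25 ± 0.12 (edgeR, adjusted p = 0.254, unadjusted p = 0.0519), with an approximate 95% interval of 0.02 to 0.48. It was 0.40 ± 0.12 at the medium dose (edgeR, adjusted p = 0.174) and −0.12 ± 0.12 at the low dose (edgeR, adjusted p = 0.837). Without high-dose replicate 2, the high-dose value was 0.38 ± 0.08 and passed the adjusted p but not the fold limit (edgeR, adjusted p = 0.00208). In that library UGT1A6, UGT1A8 and UGT1A10 were at their highest and UGT1A1 at its lowest of the group, and the part of the library in these differences was not tested.

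UGT1A4, UGT1A7 and UGT1A9 were near the limit of the data, with 15.7 to 92.1 expected counts per library, so that small differences were not detectable at this depth. UGT1A7, a member of the upper digestive tract and airway, was at 3.85, 2.79 and 2.07 CPM with the vehicle, 1.72, 0.740 and 0.806 in the low-dose group, 1.47, 1.89 and 1.76 in the medium-dose group and 2.30, 4.74 and 2.15 in the high-dose group. It was lower than every vehicle library in every low-dose and medium-dose library and overlapped with them at the high dose. The log2 fold change was −1.38 ± 0.38 for the low dose (edgeR, adjusted p = 0.277), −0.74 ± 0.36 for the medium dose (edgeR, adjusted p = 0.460) and 0.03 ± 0.35 for the high dose (edgeR, adjusted p = 0.980). Under the 20 alternative settings the low-dose value lay between −1.89 and −1.15, and it passed both limits under 2 of them, DESeq2 on the vehicle and low-dose libraries alone (adjusted p = 0.00745) and edgeR without high-dose replicate 2 (adjusted p = 0.0219).

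UGT1A4, which forms N-glucuronides of tertiary amines, was at 1.10, 1.06 and 1.23 CPM with the vehicle and at 1.89, 2.97 and 1.17 at the high dose, where the groups overlapped. Its log2 fold change at the high dose was 0.75 ± 0.34 (edgeR, adjusted p = 0.233), with a 95% interval of 0.09 to 1.41, and 0.41 without high-dose replicate 2. UGT1A9, a propofol-conjugating enzyme mainly of liver and kidney, was at 2.37, 0.909 and 1.32 CPM with the vehicle and 0.991, 1.84 and 1.11 at the high dose. Its log2 fold change there was −0.22 ± 0.38 (edgeR, adjusted p = 0.812, 95% interval −0.96 to 0.52). Neither gene passed the adjusted p at the medium dose (edgeR, 0.754 for UGT1A4 and 0.978 for UGT1A9) or at the low dose (0.908 and 0.696).

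When the dose was entered as a rank over all 12 libraries, 3 of the 7 members passed the adjusted p, all upwards, where 5.74% of all genes passed and 2.76% did so upwards. The slope per dose step was 0.30 ± 0.04 on the log2 scale in UGT1A6 (edgeR, adjusted p = 0.000681), 0.19 ± 0.03 in UGT1A10 (edgeR, adjusted p = 0.00203) and 0.17 ± 0.04 in UGT1A8 (edgeR, adjusted p = 0.0191). These 3 members passed under each of the 18 alternatives that give a trend. UGT1A1 had a slope of 0.13 ± 0.05 (edgeR, adjusted p = 0.151), which was 0.17 ± 0.04 without high-dose replicate 2 (edgeR, adjusted p = 0.0155). The slopes of UGT1A4, UGT1A7 and UGT1A9 were 0.24 ± 0.10, 0.04 ± 0.16 and 0.00 ± 0.13, with adjusted p-values of 0.181, 0.927 and 0.992 (edgeR).

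**Figure D4:**
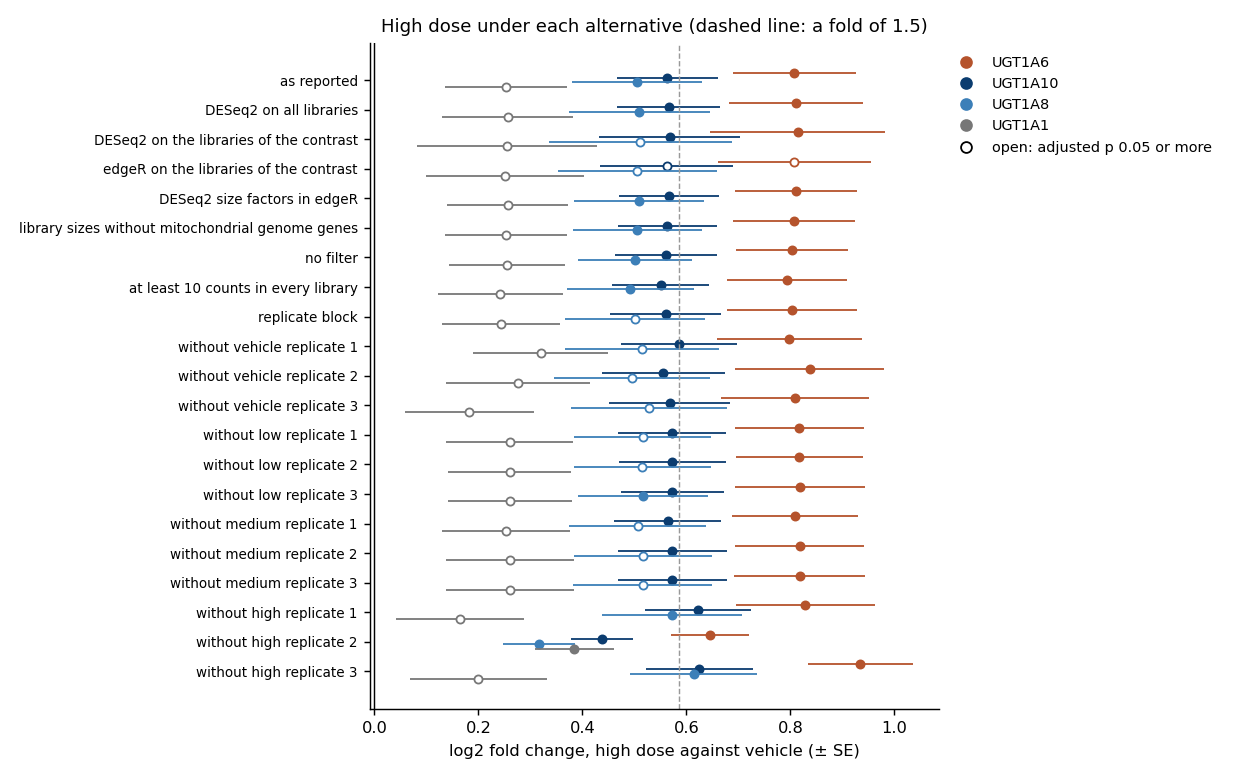
Log2 fold change at the high dose (horizontal axis, ± SE) of UGT1A6, UGT1A10, UGT1A8 and UGT1A1 as reported and under each of 20 alternative settings, with open points where the adjusted p was 0.05 or more. UGT1A6 stayed between 0.65 and 0.93, and leaving out high-dose replicate 2 gave the lowest value for UGT1A6, UGT1A8 and UGT1A10 and the highest for UGT1A1.

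Divided by the length of the main transcript, the levels with the vehicle were in the order UGT1A10, UGT1A8, UGT1A1, UGT1A6, UGT1A7, UGT1A9 and UGT1A4. UGT1A10 was at 139 ± 4.00 CPM per kb, UGT1A8 at 24.6 ± 0.599, UGT1A1 at 19.6 ± 2.05 and UGT1A6 at 17.9 ± 0.413 (SD, n = 3). UGT1A7 was at 1.22 ± 0.379 CPM per kb, UGT1A9 at 0.646 ± 0.317 and UGT1A4 at 0.465 ± 0.0365. The libraries of UGT1A1 and UGT1A6 overlapped on this scale, as did those of UGT1A7 with UGT1A9 and of UGT1A9 with UGT1A4, so that these neighbours in the order do not differ beyond their spread. At the low dose UGT1A6 was at 19.5 ± 1.20 CPM per kb and UGT1A1 at 18.0 ± 1.17, with overlapping libraries. At the medium dose they were at 28.2 ± 1.64 and 25.9 ± 0.401, without overlap. At the high dose they were at 31.4 ± 6.25 and 23.3 ± 4.02, with overlap, and replicate 2 was the highest in UGT1A6 and the lowest in UGT1A1.

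UGT1A10 made up most of the family in every group, with a mean share of the sum of 68.4% ± 0.580 with the vehicle, 69.8% ± 0.519 in the low-dose group, 66.7% ± 0.496 in the medium-dose group and 68.9% ± 1.15 in the high-dose group (SD, n = 3). UGT1A8 held 11.3% to 12.1% of the sum by group mean. The share of UGT1A6 was 8.96% ± 0.409 with the vehicle, 9.41% ± 0.494 in the low-dose group, 11.3% ± 0.521 in the medium-dose group and 10.7% ± 0.845 in the high-dose group, and every medium-dose and high-dose library was above every vehicle library. UGT1A1 held 9.19%, 5.31% and 9.07% of the sum in the high-dose libraries against 9.98%, 9.80% and 8.52% with the vehicle, where replicate 2 of the high dose was the lowest. UGT1A4, UGT1A7 and UGT1A9 together held 1.13% ± 0.272 with the vehicle and 0.645% to 0.866% by group mean at the 3 doses.

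**Figure D5:**
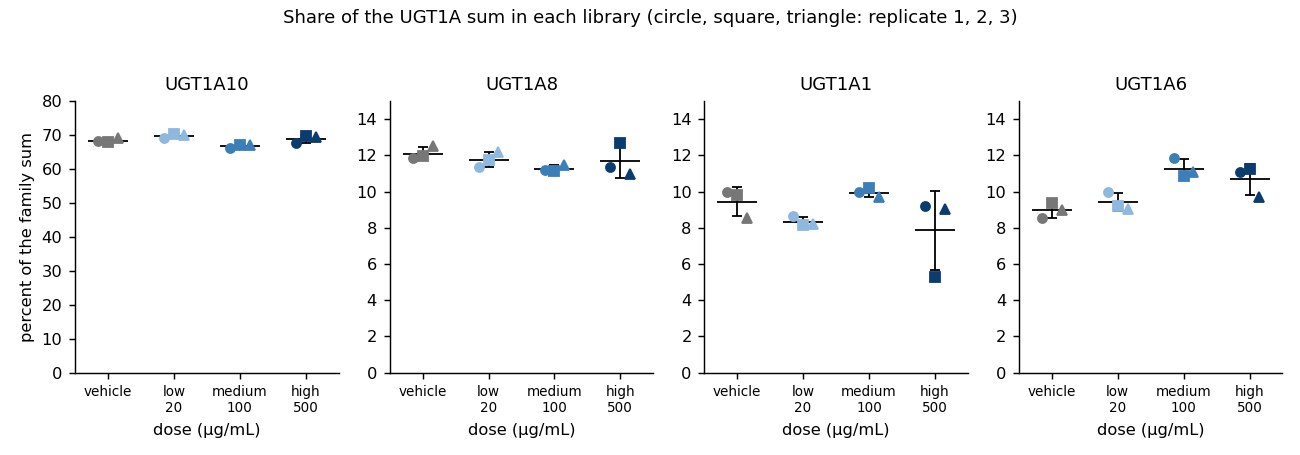
Share of the family sum in percent held by UGT1A10, UGT1A8, UGT1A1 and UGT1A6 in each library, by dose, with the mean as a line and the SD as the bar (n = 3). The UGT1A10 panel runs to 80% and the others to 15%, and the square in the high-dose group of UGT1A1 is the library at 5.31%.

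Counts of UGT1A6 per count of UGT1A10 leave the other members out. The ratio was 0.125, 0.138 and 0.130 in the vehicle libraries, 0.144, 0.131 and 0.129 in the low-dose libraries, 0.179, 0.162 and 0.165 in the medium-dose and 0.164, 0.161 and 0.140 in the high-dose libraries. The medium-dose libraries were above all vehicle and low-dose libraries, and the high-dose libraries were above the vehicle, replicate 3 only just, and overlapped with the low dose. Whether UGT1A6 and UGT1A10 changed unequally was not tested. The ratio of UGT1A8 to UGT1A10 was 0.177 ± 0.00391 with the vehicle, 0.169 ± 0.00279 for the medium dose and 0.169 ± 0.0123 for the high dose (SD, n = 3), with overlap at the high dose and with every medium-dose library below every vehicle library.

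The 250 bases before the annotated start were searched on both strands for GCGTG, the core bound by AhR with its partner ARNT, and for TGACNNNGC, the core bound by NRF2, in the RefSeq promoter table of GRCh38.p14, which had 7 windows for 6 of the members. UGT1A10 had no entry there. GCGTG is in 32.2% of all 35116 windows and TGACNNNGC in 10.9%. The first of the annotated starts of UGT1A6, and the windows of UGT1A4, UGT1A7, UGT1A8 and UGT1A9, hold GCGTG once. The matches are printed with 10 bases on each side, the match in capitals, because they allow the upstream sequence to be set beside the dose response.
UGT1A6: acaggaactcGCGTGccagccaggt
UGT1A4: ttcaagatagGCGTGattggtcttt
UGT1A7: tgaataagtaCACGCcttcttttga
UGT1A8: aggataaataCACGCcctctattgg
UGT1A9: aggataaaaaCACGCcctctattgg
The UGT1A6 match is at chr2:233691492-233691516 with its flanks, on the forward strand, where an annotated alternative exon of UGT1A7 also lies, and the UGT1A8 match is at chr2:233617597-233617621, on the reverse strand. The window of UGT1A1 held neither motif. The window before the second start of UGT1A6, where the exon 1 given above begins, held TGACNNNGC and no GCGTG, and it was the 1 window of the 7 with TGACNNNGC. A match is a string of letters and was not examined for binding.

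Genes known as AhR targets are given beside the family because UGT1A6 and UGT1A1 are commonly counted among them. Of 6 such genes 5 were tested, and 5 were called higher with the high dose, 4 with the medium dose and 3 with the low dose. CYP1A1, the best known AhR target and a cytochrome P450, was at 0.110, 0.394 and 0.352 CPM with the vehicle, 5.84, 2.18 and 3.31 in the low-dose group, 85.0, 90.5 and 94.4 in the medium-dose group and 92.1, 102 and 101 in the high-dose group. At the low dose CYP1A1, CYP1B1 and TIPARP were called, with log2 fold changes of 3.60 ± 0.43, 1.34 ± 0.15 and 0.74 ± 0.09 (SE, n = 3 per group), a dose at which no UGT1A member was called by edgeR in the fit of all libraries. ALDH3A1, an aldehyde dehydrogenase, had log2 fold changes of 0.35 ± 0.07, 1.28 ± 0.07 and 1.82 ± 0.07 from the low to the high dose. The median log2 fold change of the 5 was 1.82 at the high dose, against 0.51 in the UGT1A members.

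All 9 genes of a list of NRF2 targets were tested, and 6 were called higher with the high dose, 3 with the medium dose and 0 with the low dose, where edgeR gave adjusted p-values of 0.429 or more. By the adjusted p alone all 9 were higher at the high dose. GCLC, a subunit of the enzyme that starts glutathione synthesis, rose by 0.77 ± 0.06 (SE, n = 3 per group), SLC7A11, a cystine transporter, by 1.20 ± 0.10, TXNRD1, a thioredoxin reductase, by 0.72 ± 0.07 and HMOX1, haem oxygenase 1, by 1.09 ± 0.11 at the high dose. GCLM, the other glutamate-cysteine ligase subunit, rose by 0.75 ± 0.09 and NQO1, a quinone reductase on both lists, by 0.89 ± 0.15. The median log2 fold change of the 9 was 0.75 at the high dose, against 0.51 over the 7 UGT1A members. The part of AhR or NRF2 in the changes of the UGT1A members was not tested.

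Around the UGT1A reaction itself, none of the 9 genes for the supply of UDP-glucuronic acid was called at any dose. UGDH, which makes this cofactor, was at 82.2 ± 2.60 CPM with the vehicle and 88.9 ± 9.46 at the high dose, a log2 fold change of 0.11 ± 0.08 (edgeR, adjusted p = 0.474). SLC35D1, a carrier of UDP-glucuronic acid into the endoplasmic reticulum, had the smallest p of this list, with −0.36 ± 0.10 (edgeR, adjusted p = 0.0521). Of 6 genes for the cleavage and export of glucuronides, ABCC2, an export pump of the apical membrane, was called at the high dose, with 0.744 ± 0.283 CPM with the vehicle and 1.72 ± 0.467 at the high dose, a log2 fold change of 1.17 ± 0.27 (edgeR, adjusted p = 0.0252). ABCC3, the basolateral pump, rose by 0.50 ± 0.12 and passed the adjusted p only (edgeR, 0.0336), and GUSB, the lysosomal enzyme that removes glucuronic acid, was at 0.08 ± 0.08 (edgeR, adjusted p = 0.673).

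Of 13 genes of the other families named UGT, which are UGT2, UGT3 and UGT8, 3 passed the filter on low counts, and none of these 3 was called at any dose. UGT8, which makes galactosylceramide, was at 114 ± 6.24 CPM with the vehicle and 92.3 ± 4.94 at the high dose, lower by the adjusted p (edgeR, 0.0165) with a log2 fold change of −0.30 ± 0.06, and UGT2B7 and UGT2A3 were at −0.57 ± 0.31 and −0.47 ± 0.26. Of 11 other conjugating enzymes 6 were tested and none was called at any dose, SULT2B1, a sterol sulfotransferase, having the smallest p at the high dose, with 0.23 ± 0.07 (edgeR, adjusted p = 0.0894). Of 10 other genes of the UGT1A locus and its neighbours 5 were tested and none was called, with log2 fold changes at the high dose of 0.74 ± 0.35 in MROH2A, which had the smallest p (edgeR, adjusted p = 0.260), 0.12 ± 0.07 in HJURP, 0.13 ± 0.07 in USP40, 0.31 ± 0.76 in the pseudogene UGT1A2P and −0.14 ± 0.33 in DNAJB3.

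Transcription factors that act on UGT1A promoters changed little in transcript level. Of 16 listed, 13 were tested and none was called at any dose. AHR itself was at 107 ± 7.27 CPM with the vehicle and 103 ± 9.81 at the high dose, a log2 fold change of −0.05 ± 0.08 (edgeR, adjusted p = 0.777), and NFE2L2, the gene of NRF2, was at 0.23 ± 0.08 (edgeR, adjusted p = 0.138). PPARG, a nuclear receptor of fatty acids, at 0.38 ± 0.08, passed the adjusted p at the high dose without reaching the fold limit (edgeR, 0.0129). CDX2, an intestinal homeobox factor, was at 0.40 ± 0.11 (edgeR, adjusted p = 0.0520).

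The 4 genes whose log2 CPM followed the family sum most closely over the 12 libraries were GPX2, AKR1C2, TMEM45B and NAMPT, with a Pearson r of 0.981, 0.980, 0.973 and 0.970. These values are a description over libraries that share groups and depth. The family sum and all 4 genes were at their highest in high-dose replicate 2, the library that stood apart. The correlations were not computed without that library. GPX2, a glutathione peroxidase of the gut epithelium, went from 697 ± 29.5 CPM with the vehicle to 849 ± 76.0 at the high dose (SD, n = 3), with a log2 fold change of 0.28 (edgeR, adjusted p = 0.0661). AKR1C2, an aldo-keto reductase of steroids, went from 10.0 ± 0.770 to 26.9 ± 9.21 CPM, and NAMPT, the main enzyme of NAD salvage, from 134 ± 3.85 to 248 ± 42.1 CPM. AKR1C2 has close copies in the genome with which it shares reads, and its counts are uncertain for that reason.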

How the data were processed

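RNA of 12 HT29 libraries (MGIEasy directional kit, paired reads of 100 bases) was analysed. Per the submitters' processing notes, the authors used FastQC 0.11.9, Trim Galore 0.6.5, STAR 2.7.3a and RSEM 1.3.3 on GRCh38, whereas the paper's methods give other versions of Trim Galore and STAR. The deposited values are RSEM expected counts per Ensembl gene, not normalized. The strand setting of RSEM is not given in the sources used here.

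Expected counts were rounded to integers, filtered with filterByExpr (15374 genes kept, all 7 matched members among them) and scaled with TMM. The 4 groups were fitted at once in edgeR 4.0.16 under R 4.3.3 and compared by its quasi-likelihood test, with Benjamini-Hochberg adjustment over all genes tested for each comparison. A call required a fold change above 1.5 and an adjusted p below 0.05. The trend used the dose rank, with the adjusted p alone. The approximate 95% intervals use the SE and the normal distribution, which makes them narrower than the test would, and are not adjusted. The tests were tested on simulated data first. No pair of libraries within a group was a duplicate, and pairs between groups were not compared in this way. Alternatives were DESeq2 1.42.0, other scaling and filters, a replicate block and each library left out.

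The members and the 11 gene lists (111 genes, 109 matched by symbol; 93.2% of IDs have a symbol in the reference) were chosen with earlier results of these data known. The genes named are all members, list genes called at the high dose or among the 3 smallest p-values of a list, and the 5 genes most like the family sum, except that some genes under this rule are not reported here. UGDH, GUSB, AHR, NFE2L2 and the markers were named by their role after their values were seen. Promoter and junction sequences come from RefSeq and the GRCh38 genome. Gene lengths are those of GENCODE release 44 main transcripts. The paper names an earlier annotation of GRCh38 for the authors' counts.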

Additional observations from a re-analysis of the deposited data

How the results depend on the processing

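The reported counts of called members were 1 for the high dose, 1 for the medium dose and 0 for the low dose. With edgeR on the libraries of each comparison alone the count was 0 at the high dose and 0 for high against low, and with DESeq2 it was 1 at the low dose (libraries of that comparison) and 2 for high against low (all libraries). With no minimum fold it was 3 at the high dose and 2 for high against low. When 1 library was left out, the counts ran 1 to 3 for the high dose, 0 to 1 for the medium and the low dose alike, and 0 to 2 for high against low, and the trend count from 3 to 4. The family sum then ran from 0.43 to 0.62 at the high dose, from 0.11 to 0.29 for high against medium and from 0.38 to 0.56 for high against low, each lowest without high-dose replicate 2.

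Replicate numbers did not pair the libraries, since 5 of 18 pairs of same-numbered libraries had deviations correlated over 0.1 (range −0.50 to 0.37). With the replicate block the count was 0 at the medium dose, where UGT1A6 had a log2 fold change of 0.66 (edgeR, adjusted p = 0.0544), and 1 at the high dose.

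Signs turned only in values that had passed no test. With 1 library left out, UGT1A7 ran from −0.37 to 0.26 at the high dose and from −0.12 to 0.17 in the trend, UGT1A9 from −0.52 to 0.20 (high dose), from −0.25 to 0.47 (medium dose) and from −0.053 to 0.15 (trend), UGT1A4 from −0.064 to 0.34 and UGT1A8 from −0.060 to 0.057 at the low dose, and UGT1A6 from −0.010 to 0.28 for high against medium. UGT1A7 at the high dose was −0.00074 with at least 10 counts required in every library. The cause was not tested. Fits on the libraries of 1 comparison give no trend, and the summed row gives no value for single members. Leaving out a library leaves 2 in its group, and UGT1A4, UGT1A7 and UGT1A9 are limited by their counts.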
